A study of Mus musculus with 9 samples.

Results

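Cytosolic ribosomal proteins build the small and large subunits of the ribosome, and their genes were followed here across all 9 RNA-seq libraries of the series. They were chosen by symbol: protein-coding genes whose name opens with Rpl or Rps and a digit, plus Rplp0, Rplp1, Rplp2 and Rpsa, without the Rps6k kinases. This rule took 92 of the 49315 gene IDs in the count table. Of these, 77 encode core proteins (46 of the large and 31 of the small subunit) and 7 encode paralogs (Rpl3l, Rpl7l1, Rpl10l, Rpl22l1, Rpl36al, Rpl39l and Rps27l). The remaining 8 were Rps27rt, a retrogene of Rps27, 6 genes annotated as protein-coding under pseudogene-type symbols, and Rps19bp1, which matches the naming rule but encodes a protein that binds Rps19 and is not a ribosomal protein.

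The study grew SB28, a mouse glioblastoma cell line that expresses GFP, for 2 days together with primary astrocytes from the subventricular zone of mito::mKate2 mouse pups at postnatal days 0 to 3, whose mitochondria carry the red protein mKate2. Cells were sorted into astrocytes, SB28 that had not taken up mKate2 (mKate2-) and SB28 that had (mKate2+), so that all 3 groups had shared the same co-culture. Each group had 3 libraries, and all 9 came from 3 distinct co-cultures, so libraries of different groups were not independent of each other. No label states which libraries shared a co-culture. All tumor cells came from 1 line, the strain background was C57BL6, and acquisition of mKate2 was a sorted property, not an assigned treatment. The libraries held 24454561 to 39287841 counts assigned to genes, which placed 81 of the 92 genes at 1000 counts or more in every library, while 6 stayed under 10 counts throughout.

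The astrocyte identity was checked against 10 markers, 9 of which averaged at least 10 CPM (normalized counts per 1000000) in the astrocyte libraries and 3 of which did so in SB28. In mKate2- SB28, 8 of 9 tested were lower and 1 higher at an adjusted p below 0.05 (33.8% and 29.3% of all genes), with a median log2 fold change of -5.72. The counts were again 8 and 1 in mKate2+ SB28 (32.1% and 28% of all genes), with a median of -6.06. The summed level of the list was 848, 815 and 1401 CPM in the 3 astrocyte libraries and 362 to 475 CPM in the 6 SB28 libraries. The most abundant marker in both was Gja1, a gap junction protein, which was higher in SB28: its log2 fold change was 0.43 ± 0.12 (edgeR, adjusted p = 0.0156) in mKate2- and 0.55 ± 0.13 (adjusted p = 0.00807) in mKate2+ SB28, or 0.51 ± 0.14 (adjusted p = 0.0203) without the second mKate2+ library. In contrast, the glutamate transporter Slc1a3 stood at 171 to 228 CPM in astrocytes and 0.61 to 2.34 CPM in SB28. Markers of other cells were present in the astrocyte libraries: 4 of 9 oligodendrocyte lineage genes reached 10 CPM, led by Olig1, and the list summed to 854, 430 and 491 CPM, against 17.3 to 26.7 CPM in SB28. Of 5 fibroblast and meningeal genes, 3 reached 10 CPM in either cell type, with sums of 1003 to 1407 CPM in astrocytes and 591 to 861 CPM in SB28, and Col1a2 most abundant in both. Microglial and macrophage genes (1 of 10 at 10 CPM, led by Tmem119) summed to 28.5 to 41.1 CPM and 47.0 to 66.6 CPM. Neuronal genes (2 of 5 in astrocytes and 1 of 5 in SB28, led by Stmn2 and Tubb3) summed to at most 52.8 CPM, with Rbfox3 at 0 in all 9 libraries. Endothelial and mural genes (1 of 5, led by Pdgfrb) summed to at most 64.8 CPM. Muscle genes (0 of 5, led by Actc1) summed to at most 7.52 CPM. The part of these other cell types in the comparisons with astrocytes was not tested.

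Each ribosome carries a single copy of nearly all of these proteins, so their mRNAs are made in large and coordinated amounts, and their output tracks cell growth. Most of the mRNAs begin with a 5′ terminal oligopyrimidine (TOP) tract, a C followed by a run of pyrimidines at the very start of the transcript, through which mTOR and the RNA-binding protein LARP1 control their translation. Paralogs such as Rpl3l and Rpl39l are best known from single tissues, muscle and testis.

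The TOP start is shown for several members because it is the feature that names the family's shared control. RefSeq promoter windows (GRCm38.p6, 250 bases before to 50 bases after each annotated start) were matched by symbol to 66 of the 92 genes, 57 of them core. Among these 57, 13 (22.8%) had a window whose annotated start read C followed by 4 pyrimidines, against 813 of 27025 genes with a window (3.01%). In each line 10 bases precede the start, 20 follow from it, and capitals mark the first 5 transcribed bases as annotated:
Rps6 (chr4:86857348-86857377, minus strand): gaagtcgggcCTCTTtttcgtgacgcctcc
Rpl35 (chr2:39005112-39005141, minus strand): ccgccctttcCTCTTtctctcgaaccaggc
Rpl38 (chr11:114668570-114668599, plus strand): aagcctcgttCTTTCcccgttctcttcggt
Rplp2 (chr7:141447641-141447670, plus strand): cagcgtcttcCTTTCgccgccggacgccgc
Rps18 (chr17:33955646-33955675, minus strand): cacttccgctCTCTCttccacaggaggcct
Rps27 (chr3:90213629-90213658, minus strand): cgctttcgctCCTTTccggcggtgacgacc
Rps27rt (chr9:114982720-114982749, minus strand): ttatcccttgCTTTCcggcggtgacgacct
Rpl7l1 (chr17:46782637-46782666, minus strand): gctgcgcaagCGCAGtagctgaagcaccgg
Rpl22l1 (chr3:28805498-28805527, plus strand): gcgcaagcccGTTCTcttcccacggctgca
The first 6 are core genes with a TOP-type start. Rps27rt repeats the bases of the Rps27 transcript from that transcript's second base on, at another locus and with other sequence before them. The windows of the paralogs Rpl7l1 and Rpl22l1 did not read C and 4 pyrimidines at the annotated first base. Most core genes with a window lacked it too (13 of the 57 had it), among them Rpl22. For core genes and paralogs alike, the annotated first base in RefSeq may lie some bases from the start used in these cells. The letters CCGGAAG, the core bound by ETS factors such as Gabpa, were found on either strand in windows of 24 of the 57 core genes (42.1%) and of 9.93% of all genes with a window of the same length. The letters AAGATGGC, a YY1-type core, were found on either strand in 5 of the 57 (8.77%) and in 3.19% of all genes.

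One library stood apart before any comparison was made. The 92 genes took 3.75%, 3.32% and 2.39% of all counts in astrocytes, 4.32%, 3.76% and 3.94% in mKate2- SB28, and 3.99%, 7.06% and 4.20% in mKate2+ SB28. mKate2+ replicate 2 therefore lay far above the other 8 libraries, whereas mKate2+ replicates 1 and 3 lay within the range of the mKate2- libraries. Astrocyte replicate 3 was the lowest library. The group values were 3.15% ± 0.694, 4.01% ± 0.285 and 5.08% ± 1.71 (SD, n = 3 each), and the mKate2+ mean was 4.10% without replicate 2. All 3 mKate2- libraries were above all 3 astrocyte libraries. At the closest pair, astrocyte replicate 1 and mKate2- replicate 2, the difference was 0.0122 percentage points and the Wilson 95% intervals, which cover counting error only, overlapped (3.744% to 3.759% and 3.757% to 3.770%).

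**Figure D1:**
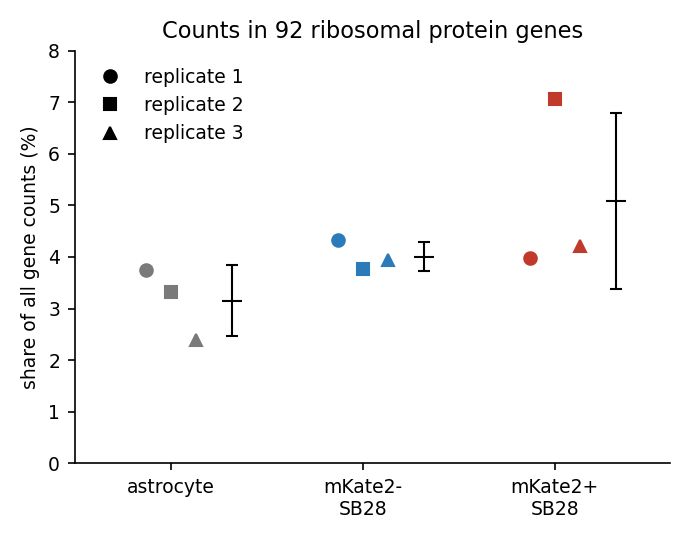
Share of all gene counts (%) taken by the 92 ribosomal protein genes in each library, by group, with mean and SD (n = 3). mKate2+ replicate 2 stands at 7.06% while the other 8 libraries lie between 2.39% and 4.32%.

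The excess in mKate2+ replicate 2 was graded by the size of the mRNA's coding sequence. This library was the highest of the 6 SB28 libraries for 76 of the 77 core genes, and its log2 ratio to the mean of the other 5 ran from 0.01 for Rpl13a to 2.47 for Rps28, with a median of 1.23. Rps28, with a coding length of 207 bases, stood at 649 CPM in that library and at 93.4 to 141 CPM in the other SB28 libraries. Rps29, a small zinc-binding protein of the 40S head encoded by 168 bases, stood at 380 CPM against 60.8 to 84.3 CPM. At the long end, Rpl4 (1257 bases) stood at 1390 CPM against 1153 to 1213 CPM, and Rpl3 (1209 bases) at 1995 CPM against 1467 to 1555 CPM. The exception among genes of middle length was Rpl13a, with 609 bases and 531 CPM against 498 to 564 CPM, inside the range of the other libraries. Across the 77 core genes, which share libraries and depth, Spearman's rho between this ratio and coding length was -0.94 and Pearson's r against log2 coding length was -0.91, given as a description.

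The other SB28 libraries had smaller ratios, and the sign of their relation to coding length differed. mKate2- replicate 1 had higher values for shorter members (median log2 ratio 0.18, rho -0.82 with coding length), mKate2- replicate 2 had lower ones (-0.19, rho 0.79) and mKate2- replicate 3 had slightly lower ones (-0.08, rho 0.61). In mKate2+ replicates 1 and 3 the medians were -0.02 and 0.11, and rho was -0.06 and -0.22. Genes outside the family with a coding length under 300 bases had a median log2 ratio of 0.74 in mKate2+ replicate 2 (206 genes), against 2.10 for the 11 family members of that class. For 600 to 900 bases the medians were 0.18 (1485 genes) and 0.53 (21 members), and the 1577 genes of 3000 bases or more lay at -0.29. The part of RNA or library quality in this pattern was not tested, and the counts of calls and the medians in mKate2+ SB28, and the fold changes of most members named there, are given with and without that library.

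**Figure D2:**
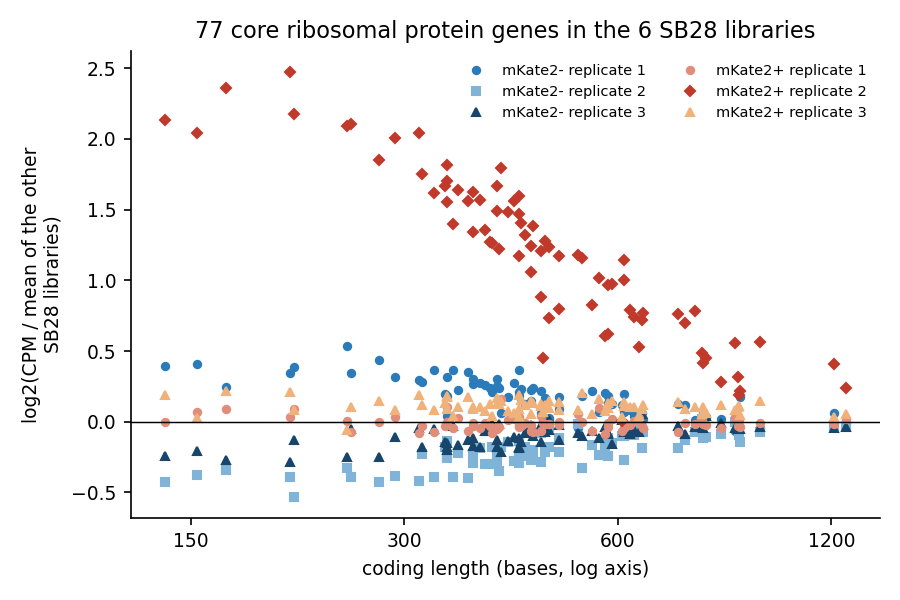
Log2 ratio of each SB28 library to the mean of the other SB28 libraries (mKate2+ replicate 2 left out of the mean) for the 77 core genes, against coding length in bases on a log axis. mKate2+ replicate 2 (red diamonds) is the highest library for 76 of the 77 genes, with values of 2.47 for the short Rps28 and 0.24 for the long Rpl4, while mKate2- replicate 1 reaches 0.54.

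The first comparison asked how tumor cells without astrocyte mitochondria differ from the astrocytes beside them. After a filter on low counts, 85 of the 92 genes were tested. In mKate2- SB28 the family lay higher: 75 of the 85 genes had a positive log2 fold change, against 48.5% of all 13356 genes tested, and the median was 0.26 against -0.04. The 75 include Rps12-ps3 and Rps27rt, which exceeded 1 CPM in no astrocyte library and entered only through the mKate2- libraries. Of the 77 core genes, 69 were positive, with a median of 0.24. By edgeR's quasi-likelihood test with an adjusted p below 0.05, 18 of the 85 (21.2%), 15 of them core genes, were higher. This is below the 29.3% of all genes tested that were called higher, and 0 were lower, against 33.8% of all genes. Past the study's stricter thresholds, which add an absolute log2 fold change above 1, 1 gene was higher and 0 were lower, against 11.5% and 22.4% of all genes. That gene, Rps12-ps3, exceeded 1 CPM in the mKate2- libraries and in no astrocyte library, so it entered the test only through the group in which it was higher, and the count of 1 is no support for a difference in the family. Rps12-ps3 is also among the 18, and its call there is no support either. The core groups did not overlap, with mKate2- above astrocytes, for 23 of 77 genes (29.9%, against 34.0% of all genes tested). The subunits had similar medians, 0.25 for 46 large and 0.24 for 31 small subunit genes, with 9 and 6 genes called higher. Single libraries weighed on these values. Without astrocyte replicate 3, the lowest library, 57 of the 85 genes were positive, the median was 0.08 against -0.01 for all genes, and 15 were called higher (against 31% of all genes) and 2 lower (33.4% of all genes). The count of 18 was 32 without astrocyte replicate 1 and 10 without astrocyte replicate 2 (31.7% and 26% of all genes), and 8, 12 and 8 without mKate2- replicates 1, 2 and 3 (23.9%, 24.9% and 23.6% of all genes).

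The largest differences among core genes were in Rpl12 and Rpl8. Rpl12, a protein at the base of the ribosomal stalk (ENSMUSG00000038900, GRCm38 chr2:32961559-32965345), stood at 602, 521 and 376 CPM in astrocytes, 990, 846 and 837 CPM in mKate2- SB28 and 891, 1569 and 943 CPM in mKate2+ SB28. Its log2 fold change in mKate2- SB28 was 0.84 ± 0.18 (SE, adjusted p = 0.00496, edgeR quasi-likelihood, n = 3 per group). All 6 SB28 libraries were above all 3 astrocyte libraries.

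Rpl8, a core protein near the peptidyl transferase center (chr15:76904078-76906314), stood at 968, 741 and 565 CPM in astrocytes, 1361, 1297 and 1321 CPM in mKate2- SB28 and 1338, 2316 and 1429 CPM in mKate2+ SB28. The mKate2- libraries were nearly equal, did not overlap with the astrocytes and differed from them by 0.81 ± 0.19 (log2, adjusted p = 0.00725, edgeR). Rpl10, a late-loading large subunit protein near the P site, was at 682, 573 and 448 CPM against 944, 924 and 897 CPM (log2 fold change 0.70 ± 0.16, adjusted p = 0.00611). Rpl7a, another large subunit protein, differed by 0.65 ± 0.15 (adjusted p = 0.00673).

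Among the small subunit proteins, Rps18 at the 40S head stood at 296, 320 and 223 CPM in astrocytes and 522, 406 and 433 CPM in mKate2- SB28 (log2 fold change 0.70 ± 0.17, adjusted p = 0.00708). Rps2, at the mRNA entry channel, stood at 2183, 1726 and 1225 CPM against 2693, 2791 and 2724 CPM (0.68 ± 0.21, adjusted p = 0.0211). Neither gene's groups overlapped. The call on Rps18 was made in 15 and that on Rps2 in 12 of 16 settings of the analysis. Rpsa, which is also known as the laminin receptor, differed by 0.57 ± 0.19 (adjusted p = 0.0321, called in 10 of the 16), and Rps27a, made as a ubiquitin fusion, had a log2 fold change of 0.53 ± 0.21 with adjusted p = 0.0547 (called in 5 of the 16).

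The acidic stalk recruits translation factors to the ribosome, and its members had unequal values. Rplp0, the stalk's anchor on the ribosome, stood at 1651, 1551 and 1092 CPM in astrocytes, 2209, 2176 and 2216 CPM in mKate2- SB28 and 2254, 3340 and 2452 CPM in mKate2+ SB28. Its log2 fold change in mKate2- SB28 was 0.62 ± 0.17 (adjusted p = 0.0138). The P1 and P2 proteins that bind it had values of 0.26 ± 0.22 for Rplp1 (adjusted p = 0.324) and 0.12 ± 0.23 for Rplp2 (adjusted p = 0.667), and neither passed the test. Whether the 3 genes differ from each other in response was not tested.

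**Figure D3:**
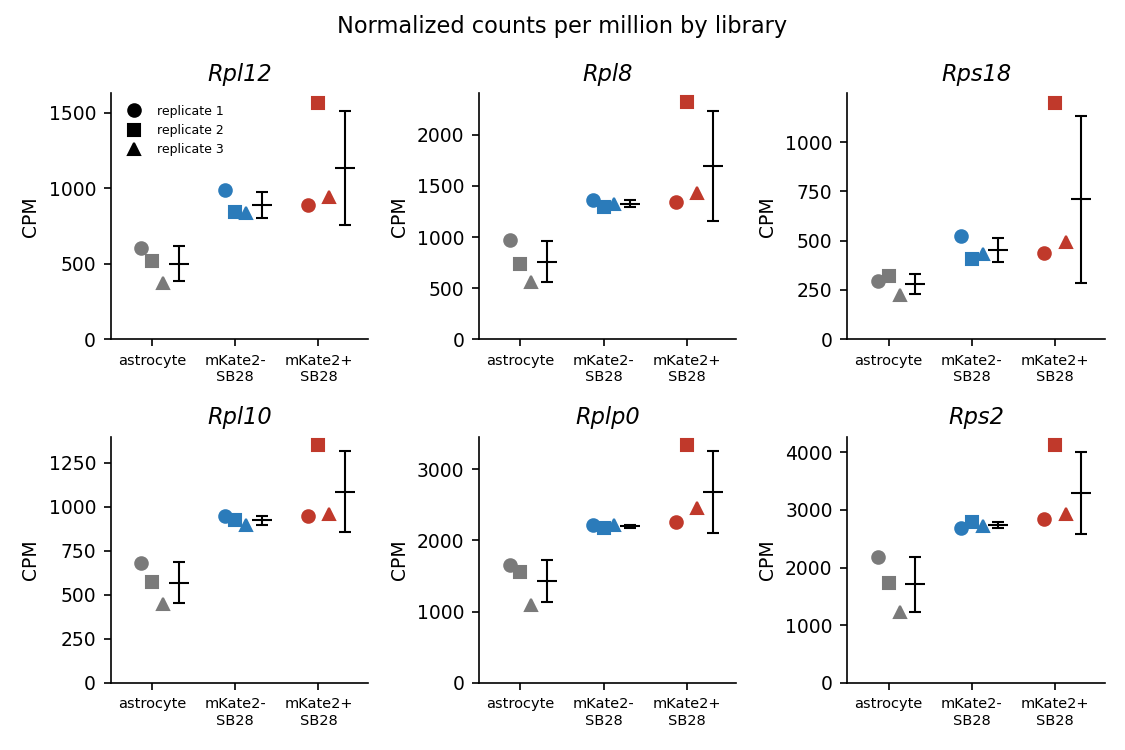
CPM by library for 6 members called higher in mKate2- SB28, with mean and SD (n = 3 per group). For each gene all SB28 libraries lie above the 3 astrocyte libraries, and mKate2+ replicate 2 is the highest.

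None of the lowest members passed the test. Rpl39, a tiny protein of the peptide exit tunnel encoded by 153 bases, stood at 112, 107 and 72.6 CPM in astrocytes and 88.8, 57.6 and 63.3 CPM in mKate2- SB28, so the groups overlapped, and its log2 fold change of -0.47 ± 0.22 had an adjusted p of 0.0891. It was called lower in 5 of the 16 settings, at -0.47 (adjusted p = 0.0348) in the fit with the replicate number as a block. Of the other lowest members, Rpl37a, Rps19, Rpl22 and Rpl28 had values of -0.29, -0.29, -0.25 and -0.15, with adjusted p-values from 0.193 to 0.616. Astrocyte replicate 3 was the lowest astrocyte library for all 77 core genes. Without it the 2 members called lower were Rpl39 and Rps19, at -0.64 and -0.48. Without mKate2- replicate 1, Rpl39 was called lower at -0.68. Lower RNA from these genes per cell and a different mix of cells in a sorted library cannot be told apart in bulk data.

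The same question for tumor cells that had taken up mKate2 gave a larger but library-dependent difference. In mKate2+ SB28 all 85 tested genes had a positive log2 fold change against astrocytes (49.4% of all 13342 genes tested), with a median of 0.84 against -0.02. Of the 85, Rps27rt and Rpl10-ps3 exceeded 1 CPM in no astrocyte library and entered only through mKate2+ libraries, so their signs are no support. All 77 core genes were also positive. Adjusted p was below 0.05 for 27 higher genes (31.8% of the members, against 28% of all genes) and 0 lower (32.1% of all genes), and 13 passed the stricter thresholds as higher (12.2% of all genes) and 0 as lower (22.8%). Without mKate2+ replicate 2, 79 of 84 members and 73 of the 77 core genes were positive (48.8% of all genes). The median was 0.32 over the members and 0.30 over the core genes. The 79 include Rpl10-ps3, which again entered only through mKate2+ libraries, so its sign is no support. Of the 84 members, 12 were called higher (14.3%, against 26.1% of all genes) and 0 lower (29.9% of all genes). Past the stricter thresholds 0 were then higher and 0 lower, against 11.9% and 22.2% of all genes. These 12 were Rpl7a, Rpl7l1, Rpl8, Rpl10, Rpl12, Rpl27, Rpl32, Rplp0, Rps2, Rps3, Rps18 and Rps19bp1. With all mKate2+ libraries kept, leaving out astrocyte replicate 2 or 3 gave 12 and 13 calls at an adjusted p below 0.05 (23.6% and 26.4% of all genes) and 5 and 2 past the stricter thresholds (12% and 12.1%). Leaving out mKate2+ replicate 1 or 3 gave 44 and 33 calls (23.3% and 22.5% of all genes) and 36 and 25 past the stricter thresholds (12.4% and 11.9%).

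Of the 13 members past the stricter thresholds in mKate2+ SB28, 1 had a coding length under 300 bases (Rpl38) and the other 12 had 318 to 771 bases. Among the 9 core genes under 300 bases, 1 had an adjusted p below 0.05 (11.1%, against 31.2% of all core genes), with a median log2 fold change of 1.40, or 0.28 without replicate 2. Rpl38, a 60S protein known for its role in translating Hox mRNAs, had a coding length of 210 bases and stood at 61.6, 57.3 and 37.2 CPM in astrocytes and 76.5, 328 and 76.1 CPM in mKate2+ SB28. Its log2 fold change was 1.62 ± 0.57 (adjusted p = 0.0412) with all libraries and 0.56 ± 0.22 (adjusted p = 0.0734) without replicate 2. Rpl12 had 1.18 ± 0.27 (adjusted p = 0.00631) and 0.88 ± 0.21 (adjusted p = 0.0133), and Rpl8 had 1.16 ± 0.27 (adjusted p = 0.00758) and 0.88 ± 0.23 (adjusted p = 0.0197). Rps18 had 1.34 ± 0.38 (adjusted p = 0.0173) and 0.75 ± 0.18 (adjusted p = 0.0141). The other 9 were Rpl27, Rpl30, Rpl32, Rpl34, Rpl35, Rpl36al, Rps20, Rps25 and Rps19bp1, with log2 fold changes from 1.09 for Rps19bp1 and Rps25 to 1.46 for Rps20. Without replicate 2 the values of the named 9 lay between 0.49 for Rpl36al and 0.89 for Rps19bp1. The core groups did not overlap, with mKate2+ above astrocytes, for 36 of 77 genes (46.8%, against 32.9% of all genes tested), and for 36 without replicate 2 (against 36.8%). Both comparisons with astrocytes used the same 3 astrocyte libraries.

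The comparison closest to the study's subject set mKate2+ against mKate2- SB28. Of 86 genes tested, 84 had a positive log2 fold change (50.9% of all 11854 genes tested), with a median of 0.56 against 0.00. The 84 include Rpl10-ps3, whose normalized values exceeded 1 CPM in mKate2+ libraries only, with 0.996 CPM in mKate2- replicate 2. It would not have passed the filter without the mKate2+ libraries. Among the 77 core genes, 76 were positive. No gene of the family or of the whole table reached an adjusted p below 0.05 (0% called), and the smallest adjusted p was 0.923. At an unadjusted p below 0.05, 1 family member and 241 genes in all (2.03%) passed, and DESeq2 also called 0 members at an adjusted p below 0.05. The core groups did not overlap, with mKate2+ above mKate2-, for 9 of 77 genes (11.7%, against 5.46% of all genes tested), and for 9 without replicate 2 (against 9.95%). By the study's looser criteria (fold above 1.5, unadjusted p below 0.05, mean normalized count above 50), 1 member was higher and 0 lower, against 0.194% and 0.169% of all genes. That member was Rps29, at 84.3, 60.8 and 63.4 CPM in mKate2- SB28 and 77.6, 380 and 83.2 CPM in mKate2+ SB28. The groups overlapped and 1 library carried the difference: the log2 fold change was 1.37 ± 0.58 with all libraries (edgeR, adjusted p = 0.923) and 0.19 ± 0.13 without replicate 2 (adjusted p = 1.00).

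Without mKate2+ replicate 2, 70 of 86 genes were positive (48.3% of all genes), the median was 0.03, and 0 members met the looser criteria (0.0424% of all genes higher and 0.136% lower). All 77 core genes then lay between -0.06 and 0.19, and 65 of them were positive. The highest 3 members were Rpl10-ps3 (0.57), Rps29 (0.19 ± 0.13) and Rpl28 (0.18 ± 0.09). Rpl10-ps3 had 8 to 49 counts per library. Its normalized values exceeded 1 CPM in mKate2+ libraries only, and it would not have passed the filter without them. The lowest 3 were Rps27rt (-0.39), Rps12-ps3 (-0.25) and Rpl22l1 (-0.10 ± 0.12). None passed the test. When mKate2+ replicate 1 or replicate 3 was left out in its place, 52 and 40 members were higher by the looser criteria, against 2.63% and 1.96% of all genes.

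**Figure D4:**
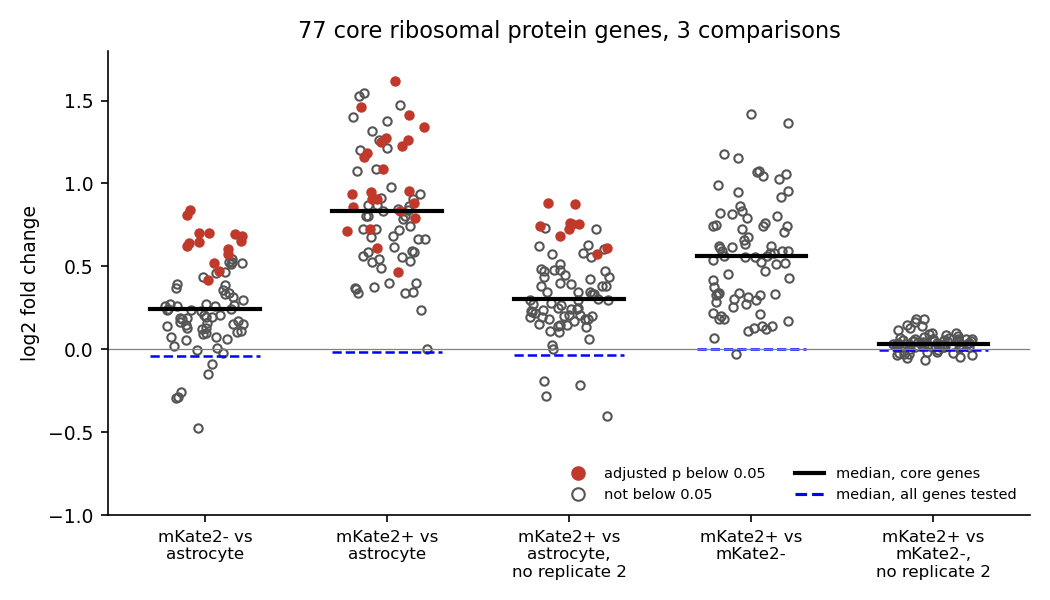
Log2 fold changes of the 77 core genes in the 3 comparisons, with the mKate2+ comparisons repeated without replicate 2. Filled points have an adjusted p below 0.05. The core median falls from 0.84 to 0.30 against astrocytes and from 0.56 to 0.03 against mKate2- SB28 when that library is left out.

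Per exonic length, the most abundant members averaged over the 6 SB28 libraries, mKate2+ replicate 2 included, were Rps2, Rplp1, Rplp0, Rpl8 and Rps3a1. The mKate2- libraries alone had the same 5 at the top, in the order Rps2, Rplp0, Rplp1, Rps3a1 and Rpl8. In TPM (counts divided by the length of all annotated exons and scaled to the same total in each library) Rps2 stood at 2938 ± 582 in astrocytes and 4881 ± 621 in mKate2- SB28 (SD, n = 3). Rplp1 stood at 2996 ± 676 and 3684 ± 210, and Rplp0 at 2739 ± 544 and 4327 ± 528. The first 3 were thus within 1 SD of each other in astrocytes. Rpl8 stood at 1752 ± 296 and 3180 ± 339, and Rps3a1 at 2330 ± 301 and 3186 ± 308. The spans of 1 SD around the means overlapped for every pair of neighbours in the mKate2- order. In mKate2+ SB28 Rplp1 stood at 5439 ± 2399 and Rps2 at 5239 ± 218, and Rplp1 had 1842 CPM in replicate 2 against 570 and 624 CPM in the others. Without replicate 2 the mKate2+ means were 5354 TPM for Rps2, 4810 for Rplp0 and 4054 for Rplp1. Scaled by coding length in place of exonic length, Rps2 was again first over the SB28 libraries and Rps3a1 was at rank 16.

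The 7 paralogs split into 4 that were expressed and 3 that were not detectable beyond a few counts. Rpl3l, the muscle paralog of Rpl3, had 2, 0 and 1 counts in astrocytes, 0, 1 and 0 in mKate2- SB28 and 0 in each mKate2+ library. Rpl10l, a retrogene known from testis, had 2 counts over all 9 libraries, and Rpl39l, also known from testis, had 18, with at most 4 in any library. A count of 0 allows up to 3 counts, or 0.0764 to 0.123 CPM depending on the library. Their parents were abundant, with at least 35369 counts for Rpl3, 16307 for Rpl10 and 1919 for Rpl39 in every library, so no ratio is given.

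The ratio of Rpl22l1 counts to those of its parent Rpl22 did not overlap between SB28 and astrocyte libraries, a difference that did not pass a test. Rpl22 encodes a 60S protein that is dispensable in many tissues and that is known to repress Rpl22l1. Rpl22l1 counts were 32.5%, 37.1% and 25.6% of Rpl22 counts in astrocytes, 49.6%, 48.6% and 51.1% in mKate2- SB28 and 47.8%, 41.0% and 44.5% in mKate2+ SB28. All SB28 libraries were above all astrocyte libraries, and all mKate2+ libraries were below all mKate2- libraries. The log2 ratio was 0.66 higher in mKate2- SB28 and 0.50 higher in mKate2+ SB28 than in astrocytes, and 0.17 lower in mKate2+ than in mKate2- SB28. Each had p = 0.1 by a two-sided exact permutation test, the smallest that 3 against 3 allows, and 0.171 after adjustment over 12 tests (4 pairs in 3 comparisons). Neither gene alone passed the test against astrocytes in mKate2- SB28, with log2 fold changes of 0.38 ± 0.22 for Rpl22l1 (edgeR, adjusted p = 0.175) and -0.25 for Rpl22 (adjusted p = 0.193). Without mKate2+ replicate 2 the mean log2 ratio of that group was -1.12, against -1.17 with it, -1.01 in mKate2- SB28 and -1.67 in astrocytes.

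Rps27l, a p53-responsive paralog of the zinc-finger protein Rps27, had a lower ratio to its parent in SB28 libraries, again without passing a test. Its counts were 88.7%, 105% and 101% of those of Rps27 in astrocytes, 79.1%, 77.2% and 72.7% in mKate2- SB28 and 76.6%, 51.7% and 76.7% in mKate2+ SB28. The log2 ratio was lower by 0.36 and 0.55 in the SB28 populations (exact permutation p = 0.1 each, 0.171 adjusted), and no SB28 library reached the astrocyte range. Between mKate2+ and mKate2- SB28 the groups overlapped (difference -0.18, exact permutation p = 0.5). The low mKate2+ value came from replicate 2, without which the mean log2 ratio was -0.38, next to -0.39 in mKate2- SB28. Rps27 and Rps27l have the same coding length of 252 bases.

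Rpl7l1, a paralog of Rpl7 linked to ribosome assembly, was the paralog that passed the gene-wise test in both SB28 populations. It stood at 111, 103 and 94.6 CPM in astrocytes, 174, 145 and 173 CPM in mKate2- SB28 and 157, 171 and 186 CPM in mKate2+ SB28, with no overlap between astrocytes and either population. The log2 fold change was 0.68 ± 0.12 (edgeR, adjusted p = 0.00152) in mKate2- SB28 and 0.74 ± 0.12 (adjusted p = 0.00137) in mKate2+ SB28, or 0.75 ± 0.13 (adjusted p = 0.00449) without replicate 2. Relative to Rpl7, which had a log2 fold change of 0.10 in mKate2- SB28 (adjusted p = 0.593), its counts were 14.4% ± 1.54 in astrocytes, 21.3% ± 1.56 in mKate2- SB28 and 20.3% ± 2.14 in mKate2+ SB28 (SD, n = 3, exact permutation p = 0.1 for both against astrocytes, 0.171 adjusted), and the mKate2+ mean was 21.4% without replicate 2. Rpl36al, a retrogene-derived partner of Rpl36a, had similar mean ratios, at 61.8% ± 4.29, 62.9% ± 1.75 and 62.6% ± 4.84, with a mKate2+ mean of 65.4% without replicate 2. The exact permutation p was 0.8 to 1, but this test cannot go below 0.1 here, so it does not show that the ratio was kept. The log2 fold change of Rpl36al itself passed the test in mKate2+ SB28 (1.17 ± 0.43, edgeR adjusted p = 0.0457) and not without replicate 2 (0.49 ± 0.22, adjusted p = 0.109).

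**Figure D5:**
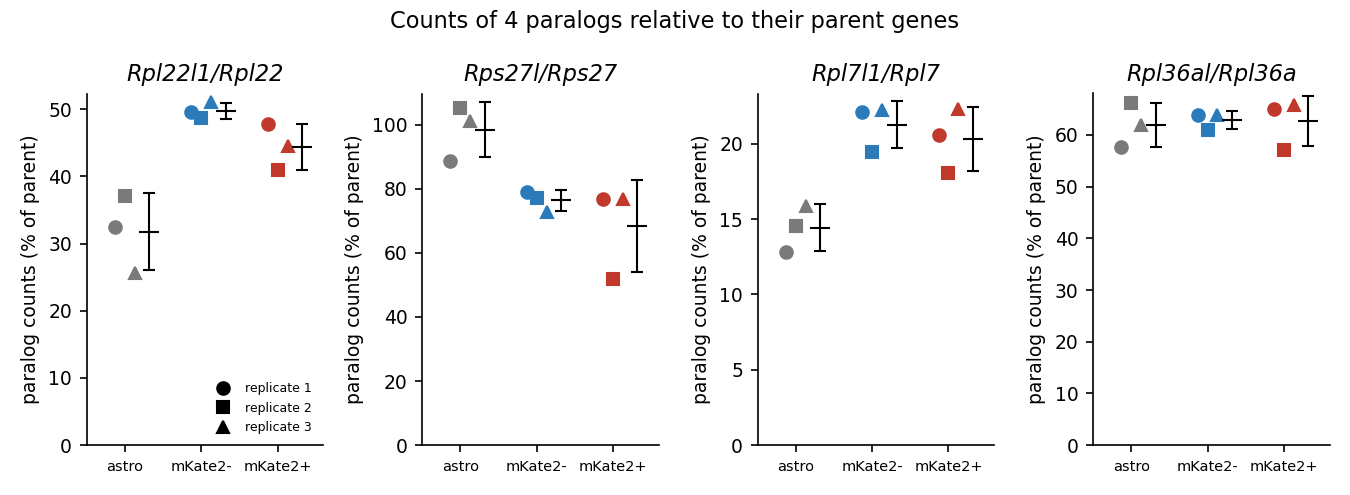
Counts of 4 paralogs as a percentage of the counts of their parent gene, by library and group, with mean and SD (n = 3). The Rpl22l1 and Rpl7l1 ratios are higher and the Rps27l ratio lower in every SB28 library than in the 3 astrocyte libraries, and the Rpl36al ratio overlaps between groups.

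Members near other copies are less certain, because only uniquely placed reads were counted. Rps27rt, the retrogene copy of Rps27, reached 0.61 to 2.99 CPM, with log2 fold changes of 0.44 and 0.91 against astrocytes (edgeR, adjusted p = 0.292 and 0.208). It stayed at 0.78 to 0.88 CPM in astrocytes and entered both tests only through SB28 libraries above 1 CPM, so neither value is support for a difference. Without mKate2+ replicate 2, which held the 2.99 CPM, Rps27rt was not tested against astrocytes. Rps12-ps3, which carries the name of an Rps12 pseudogene, was the member past the stricter thresholds in mKate2- SB28, at 11, 16 and 26 counts in astrocytes and 31, 42 and 35 counts in mKate2- SB28 (log2 fold change 1.06 ± 0.36, edgeR adjusted p = 0.0334, a test it entered only through the mKate2- libraries), and at 28, 16 and 40 counts in mKate2+ SB28. Rpl36-ps4 had 0 counts in all 9 libraries, Rpl9-ps1 had 2 and Rpl36a-ps1 had 19 over all libraries. Rpl9-ps6 was the most read of this class, with 88 to 376 counts per library. Of the 92 genes, 28 share exonic sequence on the same strand with another annotated gene, such as the small nucleolar RNA Snora65 in Rpl12, and 19 on the opposite strand, among them Rpl12 with Lrsam1 and Rps18 with Vps52. No source used here states whether counting used strand, so reads of such pairs may not be told apart.

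Rps19bp1, also known as a regulator of SIRT1, stood at 25.1, 18.4 and 15.9 CPM in astrocytes, 40.6, 33.8 and 36.6 CPM in mKate2- SB28 and 35.0, 52.9 and 38.0 CPM in mKate2+ SB28. The astrocytes did not overlap with either SB28 population, while the 2 SB28 populations overlapped with each other. Against astrocytes the log2 fold changes were 0.91 ± 0.19 (edgeR, adjusted p = 0.00364) and 1.09 ± 0.23 (adjusted p = 0.00444).

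Genes that make or accompany ribosomes were followed by lists. Of 36 ribosome biogenesis factors, 33 were higher and 1 lower in mKate2- SB28 than in astrocytes (adjusted p below 0.05, against 29.3% and 33.8% of all genes tested), with a median log2 fold change of 1.06, larger than the family's 0.26. Dkc1, the pseudouridine synthase of H/ACA particles, had 1.77 ± 0.13 (edgeR, adjusted p = 3.27e-05), Nop56, of the box C/D particles, had 1.59 ± 0.14, and Polr1a, the large subunit of RNA polymerase I, had 1.35 ± 0.12. The lower gene was Sbds, which frees Eif6 from new 60S subunits, at -0.38 ± 0.11. In mKate2+ SB28 the counts were again 33 and 1 (28% and 32.1% of all genes), and 33 and 0 without replicate 2 (26.1% and 29.9%), with medians of 1.08 and 1.16. Between the SB28 populations 0 of 36 passed the test at an adjusted p below 0.05, with 19 positive and a median of 0.01, or 33 positive and a median of 0.08 without replicate 2.

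Of 14 other TOP mRNAs, 7 were higher and 1 lower in mKate2- SB28 (median 0.39), against 29.3% and 33.8% of all genes. Npm1, a nucleolar chaperone, had 1.16 ± 0.17 and Eif3h, an initiation factor subunit, had 1.00 ± 0.15, while the elongation factors Eef1a1 and Eef2 had 0.12 ± 0.17 (adjusted p = 0.55) and -0.47 ± 0.17 (adjusted p = 0.04). In mKate2+ SB28, 7 were higher and 0 lower, with and without replicate 2 (medians 0.62 and 0.44), against 28% and 32.1% of all genes with it and 26.1% and 29.9% without it. Between the SB28 populations all 14 were positive (median 0.14), and 9 of 14 without replicate 2 (median 0.04). Fau and Rack1, ribosomal components outside the naming rule, were higher in mKate2- SB28 (0.64 ± 0.23 and 0.53 ± 0.18) and in mKate2+ SB28 (1.41 ± 0.45 and 0.66 ± 0.20), and neither passed the test in mKate2+ SB28 without replicate 2 (adjusted p = 0.0589 and 0.0665).

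Of 12 regulators of the family, 7 were higher and 3 lower in mKate2- SB28 (median 0.59, against 29.3% and 33.8% of all genes). Myc, which drives ribosome production, was higher by 1.62 ± 0.17 and its relative Mycn lower, at 470, 330 and 381 counts in astrocytes and 5, 1 and 4 counts in mKate2- SB28, and Larp1, which binds TOP mRNAs, was higher by 0.98 ± 0.12. Eif4ebp1 and Eif4ebp2, translation repressors under mTOR, were higher by 1.19 ± 0.28 and 0.93 ± 0.15. Mdm2, the p53 ligase that free Rpl5 and Rpl11 bind, was lower at -1.10 ± 0.12, and Mtor was lower at -0.31 ± 0.10. Gabpa and Yy1, whose core letters were searched above, had 0.27 ± 0.14 and 0.13 ± 0.11 and did not pass the test. In mKate2+ SB28, 6 were higher and 3 lower (28% and 32.1% of all genes), and 7 and 2 without replicate 2 (26.1% and 29.9%). Of 9 tested genes for ribosome rescue and dormancy, 5 were higher and 0 lower in mKate2- SB28 and in mKate2+ SB28 with and without replicate 2, led in mKate2- SB28 by the recycling factor Abce1 (1.55 ± 0.15) and Ifrd2 (1.32 ± 0.16), which binds idle ribosomes. The shares of all genes called are those given for the regulators. Between the SB28 populations 0 genes of these lists passed the test at an adjusted p below 0.05, as for all genes. The regulators had a median of -0.05 (2 of 11 positive) and the rescue and dormancy genes of -0.01 (4 of 9), or 0.01 (8 of 11) and 0.06 (6 of 9) without replicate 2.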

How the data were processed

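The 9 libraries were 3 each of sorted astrocytes, mKate2- SB28 and mKate2+ SB28. The deposited values are raw counts per Ensembl gene ID, which the authors made, per the labels and the study's methods, with Trimmomatic 0.36, STAR 2.5.2b on GRCm38 and featureCounts of Subread 1.5.2, counting reads placed in 1 gene. The annotation release and strand setting are not given in the sources used here. Where copies of a gene are near-identical, counting of unique reads lowers both.

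Symbols, lengths and overlaps were taken from GENCODE M21, which named 49056 of the 49315 gene IDs. Library sizes behind the CPM values were scaled by TMM over 9 libraries. A gene entered a comparison where 2 or more of its 6 libraries exceeded 1 CPM, taken for this filter from total counts without TMM scaling. Comparisons used the quasi-likelihood test of edgeR 4.0.16 (R 4.3.3), as 2 groups without covariates, with Benjamini-Hochberg adjustment over all genes tested. The SE given with a log2 fold change was derived from the test, as the absolute fold change divided by the square root of the F statistic. The calculation was tested on simulated data. Paralog ratios used two-sided exact permutation tests. Alternatives were DESeq2 1.42.0, other scalings and filters, a fit to all libraries, a replicate block, removal of a length trend and each library left out.

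The genes named are all paralogs and the retrogene, the members past the thresholds of each comparison (at most 10 per direction by adjusted p) or, where under 5, the 5 with the largest fold among those with an adjusted p below 0.05, the 3 highest and 3 lowest between the SB28 populations without mKate2+ replicate 2, the 5 most abundant per exonic length, Rplp0, Rplp1, Rplp2, Rpsa and Rps27a. Others were named after their values were seen, to show the extremes of length or of a list. The members and lists were chosen with earlier results of these data known. Gcn1 was not matched by name, and 1 listed gene is not reported here. The label of the gate names the dye on the other cell type than the methods do, and the libraries were taken by their names.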

Additional observations from a re-analysis of the deposited data

Results flagged for a closer look

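Reads also fell on 270 ribosomal protein pseudogene entries of the count table, which no comparison used, and 204 of these had at least 1 count. They took 0.0138% of all counts in mKate2+ replicate 2, the value pointed out here as a signal outside the main measurement that lay above the astrocyte libraries. The astrocyte libraries held 0.0106%, 0.00851% and 0.00716%, the mKate2- libraries 0.0101%, 0.00897% and 0.00962%, and mKate2+ replicates 1 and 3 held 0.00949% and 0.00991%. Its cause was not tested.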

How the results depend on the processing

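The 7 members called higher in mKate2- SB28 under all 16 settings (the one reported and 15 others) were Rpl7a, Rpl7l1, Rpl8, Rpl10, Rpl12, Rplp0 and Rps19bp1, and 11 were called in all 16 in mKate2+ SB28. These were 8.24% and 12.9% of the members tested, against 20.9% and 18.9% of all genes tested. Shares of all genes called in the same direction under a setting follow in parentheses. Over all 46 calls made on 29 members, no direction reversed, and 554 alternative values kept their side of the threshold while 136 did not. Removing the trend over coding length was added after the data were seen.

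In mKate2- SB28 against astrocytes, the 18 members higher at an adjusted p below 0.05 became 11 with upper-quartile scaling (25.9%). They became 12 with at least 10 counts in every library (28%) and 12 in the fit to all 9 libraries (30.1%). The count was 24 with DESeq2 (30.1%), 25 with no filter (14.9%) and 25 with the exonic length trend removed (30.9%). It was 8 to 32 with a library left out (23.6% to 31.7%). The 1 member past the stricter thresholds became 0 with DESeq2, upper-quartile scaling, no filter, at least 10 counts in every library, the replicate block, and either length trend removed (6.56% to 11.9%), and 0 to 2 with a library left out (10.6% to 12.2%). The 0 lower members became 1 with the replicate block (32.5%) and 1 with the exonic length trend removed (34.4%), Rpl39 in both, 4 with the coding length trend removed (Rpl22, Rpl37a, Rpl39 and Rps19, 34.9%) and 0 to 2 with a library left out (28.8% to 34.7%).

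In mKate2+ SB28 against astrocytes, the 27 became 20 with upper-quartile scaling (23.9%) and 24 with at least 10 counts in every library (26.8%). They became 42 with DESeq2 (29.2%), 58 with no filter (14.4% of a larger table of 27135 genes) and 50 in the fit to all 9 libraries (32%). The count was 12 to 44 with a library left out (22.5% to 28%). The 13 past the stricter thresholds became 9 with upper-quartile scaling (10.3%), 27 with no filter (7.06%) and 24 in the fit to all 9 libraries (12.7%). They became 1 (Rpl8) with the coding length trend removed (11.8%) and 0 to 36 with a library left out (11.9% to 12.4%).

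Between the SB28 populations, the 1 member became 0 with DESeq2 (0.523%), 2 with upper-quartile scaling (0.194%), 41 with no filter (0.881%), 3 with at least 10 counts in every library (0.217%), 6 in the fit to all 9 libraries (0.337%), 0 with the replicate block (0.11%), 2 with the exonic (0.11%) or the coding length trend removed (0.0904%) and 0 to 52 with a library left out (0.0424% to 2.63%).

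The causes of these changes were not tested. The 9 libraries came from 3 co-cultures, but no label says that a number marks a co-culture. Deviations of same-numbered libraries from the group means correlated between -0.147 and 0.251. Those of differently numbered libraries correlated between -0.2755 and 0.2515, so these values do not show whether a number marks a co-culture. The replicate block moved the counts of 18 and 27 to 25 and 40 (28.8% and 26.1%). The shares of counts moved by less than 1 SD with protein-coding counts as the total or pseudogene entries added, and the paralog ratios with 0.5 counts added. Leaving out 1 library of 3 could hardly exceed that limit, so it was not counted as a check on either. Depth limits Rpl3l, Rpl10l, Rpl39l and 3 of the 6 pseudogene-type members (Rpl36a-ps1, Rpl9-ps1 and Rpl36-ps4), which had too few counts to compare.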
